A study of Homo sapiens with 6 samples.

Results

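Transcripts of 8 enzymes of glutamine, glutamate and proline metabolism were followed in AsPC-1 cells, a long-established line of human pancreatic cancer. They were chosen for their roles in these routes, with earlier results of these data known, and were found by gene symbol; each of the 8 matched a row among the 26228 rows of the deposited table. They are the glutaminase GLS2 and the glutamate dehydrogenase GLUD1 (glutamine breakdown), the glutamine synthetase GLUL, the proline synthesis enzymes ALDH18A1, PYCR1 and PYCRL (an older symbol of PYCR3), the proline dehydrogenase PRODH, and the ornithine aminotransferase OAT. RNA came from 3 vehicle libraries and 3 libraries of cells exposed to DON (6-diazo-5-oxo-L-norleucine). DON resembles glutamine and blocks many enzymes for which glutamine is the substrate. Both groups spent 24 h in medium without serum, so the controls share the serum withdrawal. All libraries come from 1 cell line, and the labels used here name no dose of DON. Whether the replicates were separate cultures is not in the labels, so each p-value reflects only the spread among these libraries, and that spread may be technical.

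Glutaminase removes the amide nitrogen of glutamine to give glutamate, and glutamate dehydrogenase turns glutamate into 2-oxoglutarate, which enters the citric acid cycle. Glutamine synthetase runs the first of these steps in reverse, with ammonia and ATP. Proline is made from glutamate in mitochondria: ALDH18A1 reduces glutamate to pyrroline-5-carboxylate, and the PYCR reductases turn that product into proline. OAT joins ornithine to the same intermediate, and PRODH takes proline back to it. In many cells ALDH18A1 and PYCR1 are known as targets of ATF4, the transcription factor of amino acid shortage.

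The promoters of 3 transcripts that fell with DON are shown because those members moved in the same direction. The RefSeq promoter table (build GRCh38.p14) held entries for 5 of the 8 genes. No entry was matched for PYCRL, which also fell. Each sequence below is the 250 bases before the annotated start, 5′ to 3′ in the sense of the gene, and capitals mark every match to CACGTG (the E-box), TGACGT (the core of a cyclic AMP response element) or CCAAT on either strand.
ALDH18A1 promoter, chr10:95656712-95656961, minus strand: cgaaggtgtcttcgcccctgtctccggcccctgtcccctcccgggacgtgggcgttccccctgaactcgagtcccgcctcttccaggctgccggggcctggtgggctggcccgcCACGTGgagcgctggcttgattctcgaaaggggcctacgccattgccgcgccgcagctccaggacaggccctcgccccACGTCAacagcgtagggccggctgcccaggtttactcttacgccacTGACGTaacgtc
GLUD1 promoter, chr10:87094844-87095093, minus strand: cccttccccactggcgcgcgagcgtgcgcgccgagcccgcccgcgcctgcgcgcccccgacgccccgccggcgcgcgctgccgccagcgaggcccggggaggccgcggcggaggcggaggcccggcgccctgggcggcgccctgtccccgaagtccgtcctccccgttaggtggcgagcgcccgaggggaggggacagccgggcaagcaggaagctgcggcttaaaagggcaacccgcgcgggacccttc
OAT promoter, chr10:124418924-124419173, minus strand: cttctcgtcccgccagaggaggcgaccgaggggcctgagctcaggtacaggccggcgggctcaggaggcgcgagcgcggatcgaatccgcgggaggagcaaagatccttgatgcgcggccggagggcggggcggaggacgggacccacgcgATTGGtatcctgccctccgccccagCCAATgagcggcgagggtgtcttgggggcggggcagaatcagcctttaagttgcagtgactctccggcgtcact
ALDH18A1 has 1 E-box, whose first base lies 136 bases before the start. Within the 300 bases that run to 50 bases past the start it has 3 matches to TGACGT, of which the last crosses the start and is not in capitals. Among 35116 RefSeq promoter entries of the same length, 7.26% hold CACGTG and 7.98% hold TGACGT. The OAT promoter has 2 CCAAT boxes, one on each strand, and CCAAT is present in 34.6% of entries. GLUL, which was not tested and whose promoter is not printed, also has 2 CCAAT boxes in its entry 1 and 0 in its entry 2. None of the 4 motifs searched was found in the GLUD1 promoter, where 80.4% of the printed bases are G or C. The fourth motif, TGATGNAA (the composite element of C/EBP and ATF factors), was found in none of the entries for the 5 genes, against 3.62% of all entries. The motifs do not overlap one another here, and a match is a description of letters, not of binding.

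Levels are FPKM, fragments per kilobase of transcript scaled to mapped fragments. Comparison between genes is approximate, because FPKM can also depend on the GC content of a gene and on similar copies of it. In vehicle the order was ALDH18A1, GLUD1, OAT, PYCR1, PYCRL, GLS2, PRODH and GLUL, from 123 ± 3.21 FPKM (mean ± SD, n = 3) for ALDH18A1 to the table floor of 0.01 FPKM in 2 of 3 libraries for GLUL. The ranges of neighbouring genes in this order did not overlap down to PRODH. With DON the order became PYCR1, GLUD1, ALDH18A1, OAT, PYCRL and GLS2. PYCR1 (56.64 ± 0.540 FPKM) stood above ALDH18A1 (36.1 ± 2.59 FPKM) there, while the ranges of ALDH18A1 and OAT overlapped. ALDH18A1 in vehicle was higher than 94.2% of tested genes and GLS2 higher than 6.1%.

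**Figure D1:**
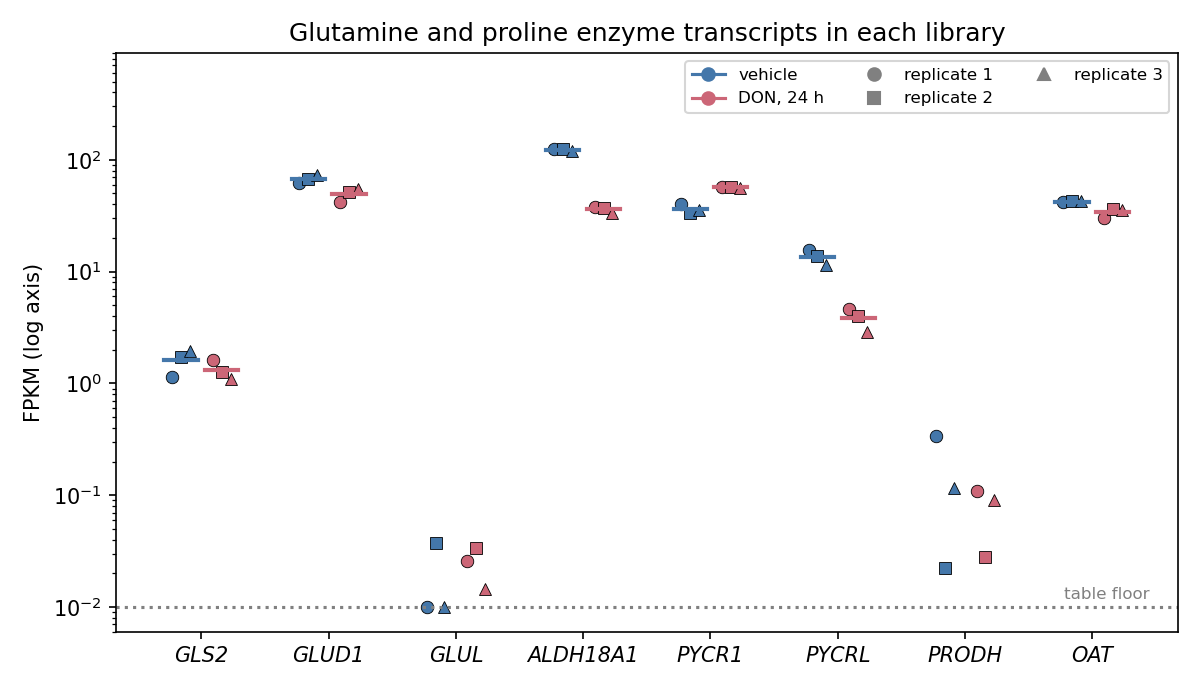
FPKM (log axis) of the 8 enzymes in each library, with circles, squares and triangles for replicates 1, 2 and 3, and bars at group means where the gene was tested. ALDH18A1, PYCRL, GLUD1 and OAT lie lower in all DON libraries (red) than in all vehicle libraries (blue), PYCR1 lies higher, and GLUL sits at or near the table floor.

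Of the 8 genes, 6 reached 1 FPKM in at least 3 libraries and were tested; GLUL and PRODH did not. With limma over 11468 genes, 1 of the 6 rose (PYCR1), 4 fell (ALDH18A1, PYCRL, GLUD1 and OAT) and 1 did not pass (GLS2), at a Benjamini-Hochberg adjusted p of 0.05. Over all tested genes 38.9% were called, 18.3% as higher and 20.6% as lower. The groups did not overlap in 5 of the 6, against 51.5% of all tested genes; DON was higher in 1 of these (background 25%) and lower in 4 (background 26.5%). Without vehicle replicate 2, vehicle replicate 3 or DON replicate 2, only 2 members were called lower, ALDH18A1 and PYCRL. The median log2 fold change of all tested genes was -0.012. In bulk RNA, fewer cells that express a gene and less of its RNA per cell cannot be told apart.

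ALDH18A1, the bifunctional enzyme that commits glutamate to proline, fell by more than 3-fold. It stood at 125.9, 124 and 119.7 FPKM in vehicle libraries 1 to 3 and at 37.9, 37.3 and 33.2 FPKM in DON libraries 1 to 3. The groups were far apart, with a spread of 2.61% of the mean in vehicle and 7.16% in DON. The fall was 3.41-fold by means, or a log2 fold change of -1.75 ± 0.08 SE (95% interval -1.94 to -1.55, limma adjusted p = 3.87e-05). By log2 fold change ALDH18A1 ranked 78 from the lowest of the 11468 tested genes.

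PYCR1, the mitochondrial reductase of the last step, moved the opposite way. Its level was 39.9, 33.2 and 35.4 FPKM in vehicle, and under DON it was 56.5, 57.2 and 56.2 FPKM. All DON libraries lay above all vehicle libraries, and they differed among themselves by less than 1 FPKM from their mean (SD 0.540), against an SD of 3.44 FPKM in vehicle. The rise was 1.57-fold (log2 fold change 0.64 ± 0.09 SE, 95% interval 0.42 to 0.85, limma adjusted p = 0.00203). With a correction for GC content the log2 fold change was 0.86, just above that interval.

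PYCRL, the reductase generally placed in the cytosol and linked to the ornithine route, fell by a factor close to that of ALDH18A1, and which of them fell more depends on the pseudocount: with 0.1 in place of 1 the log2 fold change was -1.82 for PYCRL and -1.77 for ALDH18A1. It stood at 15.5, 13.7 and 11.5 FPKM in vehicle and at 4.63, 3.99 and 2.86 FPKM in DON. No library of either group reached the range of the other. The fall was 3.55-fold by means (log2 fold change -1.60 ± 0.17 SE, 95% interval -2.004 to -1.202, limma adjusted p = 0.000607), and PYCRL ranked 113 from the lowest. With a correction for GC content the log2 fold change was -1.29.

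Ratios within a library show how unequally the steps changed. The ratio of GLUL to GLUD1 was left out because GLUL stood at the floor. ALDH18A1 held 3.15, 3.74 and 3.38 times the FPKM of PYCR1 in vehicle and 0.671, 0.651 and 0.590 times in DON. The log2 ratio thus went from 1.77 ± 0.12 to -0.65 ± 0.10 (SD, n = 3), a difference of -2.42 (exact permutation test, two-sided, p = 0.1; adjusted over 3 ratios 0.1). The log2 ratio of PYCRL to PYCR1 went from -1.42 ± 0.18 to -3.92 ± 0.35, and that of ALDH18A1 to OAT from 1.55 ± 0.05 to 0.09 ± 0.22, with the same exact permutation p of 0.1 for each. For 3 against 3 libraries 0.1 is the smallest p this test can give, so it cannot pass 0.05. For each of the 3 ratios the groups did not overlap.

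**Figure D2:**
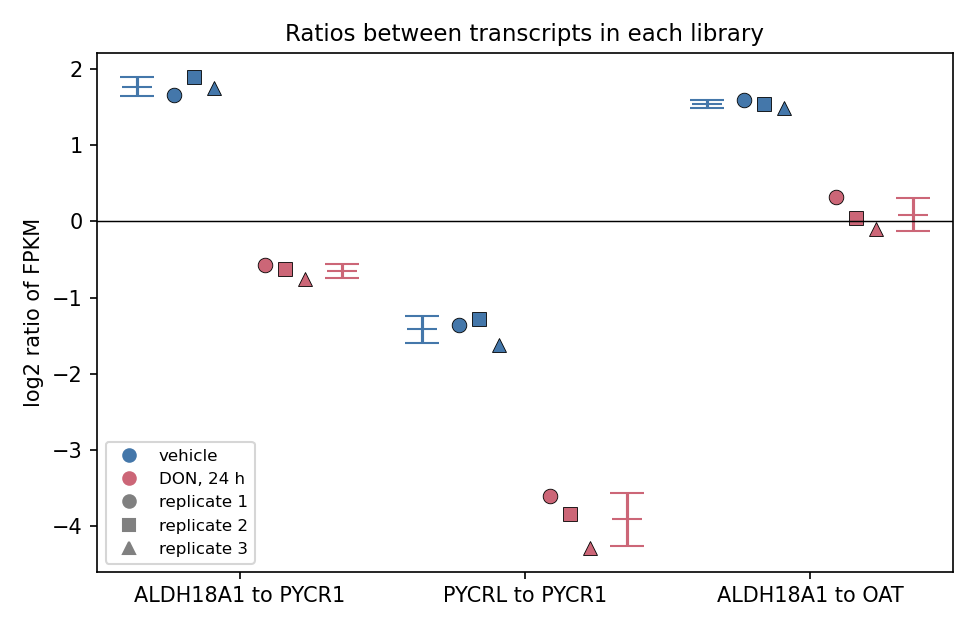
Log2 ratio of FPKM of 2 transcripts in each library (points), with mean ± SD of each group beside them. ALDH18A1 stands above PYCR1 in vehicle (1.77) and below it in DON (-0.65), and ALDH18A1 and OAT are near parity in DON (0.09).

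On the ornithine side, OAT fell by a small amount. It stood at 41.5, 42.5 and 42.5 FPKM in vehicle and at 30.3, 36.3 and 35.5 FPKM in DON. The groups did not overlap, and DON replicate 1 was the lowest. The fall was 1.24-fold (log2 fold change -0.31 ± 0.09 SE, 95% interval -0.53 to -0.09, limma adjusted p = 0.0379). The call was lost whichever library was left out, at adjusted p from 0.0636 to 0.104, and without a filter on low values (0.0816).

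In glutamine breakdown, GLUD1, the mitochondrial glutamate dehydrogenase, fell. It stood at 61.7, 67.3 and 73.5 FPKM in vehicle and at 42.0, 51.1 and 54.9 FPKM in DON. The groups did not overlap, with DON replicate 1 again the lowest, and the fall was 1.37-fold (log2 fold change -0.45 ± 0.12 SE, 95% interval -0.74 to -0.16, limma adjusted p = 0.026). The call was lost without vehicle replicate 2 (adjusted p = 0.0729), vehicle replicate 3 (0.0639) or DON replicate 2 (0.0686), and without a filter (0.109). GLUD2, an intronless copy whose reads could be confused with those of GLUD1, was listed at 1.34, 0.788 and 0.664 FPKM in the vehicle libraries and at 0.594, 0.331 and 0.507 FPKM in those with DON, too low for the test. GLUD1 held 98.6% of the summed dehydrogenase FPKM in vehicle and 99.0% in DON.

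GLS2, the liver-type glutaminase, was the lowest of the tested members. It stood at 1.13, 1.74 and 1.96 FPKM in vehicle and at 1.63, 1.25 and 1.08 FPKM in DON, with overlapping groups. Its log2 fold change was -0.16, with a 95% interval from -0.56 to 0.23 (limma adjusted p = 0.476), so a moderate change either way lies within the error.

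For glutamine synthesis, GLUL was listed at 0.01, 0.0375 and 0.01 FPKM in vehicle and at 0.0261, 0.0337 and 0.0145 FPKM in DON. The lowest value of the table is 0.01. These levels are too low for a fold change or a test. A floor value need not mean that a transcript is absent: of 82 ribosomal protein gene rows, with a median level of 1006.4 FPKM, 7 stayed below 1 FPKM in all libraries. Among these, RPL21 was between 0.0132 and 0.0314 FPKM, although dividing cells use it. GENCODE release 29 names 66 pseudogenes for RPL21 and 4 for GLUL. Whether reads of GLUL were lost to such copies was not tested.

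PRODH, which starts proline breakdown, stayed below 1 FPKM. It stood at 0.341, 0.0224 and 0.117 FPKM in vehicle and at 0.109, 0.0282 and 0.0906 FPKM in DON. The groups overlapped, and the highest value came from vehicle replicate 1, the shallowest library. PRODH2, a hydroxyproline dehydrogenase related to it and not one of the 8, was the higher of the pair at 13.5, 17.9 and 8.43 FPKM in vehicle, and it fell to 5.35, 5.61 and 3.41 FPKM in DON (log2 fold change -1.27 ± 0.27 SE, limma adjusted p = 0.0109), a call lost without a filter (0.0875). ALDH4A1, which completes the route from proline to glutamate, stood at 4.28 ± 0.150 and 5.43 ± 0.681 FPKM (limma adjusted p = 0.082).

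The neighbouring steps were counted in lists chosen by function, with the 8 enzymes among their members. The counts are to be read against the 18.3% of all tested genes called higher and the 20.6% called lower. Of 11 tested proline and ornithine genes 3 rose and 5 fell (median log2 fold change -0.09). ARG2, the mitochondrial arginase that makes ornithine, rose 4.38-fold from 4.42 ± 1.20 to 19.4 ± 3.74 FPKM (adjusted p = 0.000549), and EPRS, which charges tRNAs with glutamate and proline, rose 1.70-fold. Of 5 tested glutamine and glutamate enzymes 0 rose and 2 fell (median -0.16), a share close to the 38.9% of all tested genes called either way. This count became 0 without vehicle replicate 2, vehicle replicate 3 or DON replicate 2 and without a filter, and 1 with quantile normalization or without DON replicate 3. Besides GLUD1 it holds CCBL1, a glutamine transaminase, at 6.63 ± 0.765 FPKM in vehicle and 4.81 ± 0.426 FPKM with DON (adjusted p = 0.0328). CCBL1 lost its call in each of these 6 settings, at adjusted p from 0.0612 to 0.112. These adjusted p come from limma.

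Glutamate aminotransferases went both ways, with 2 of 6 tested higher and 2 lower (median -0.25). PSAT1, of serine synthesis, and GPT2, the mitochondrial alanine aminotransferase, rose 2.92-fold and 1.67-fold. GOT1 and GOT2, the cytosolic and mitochondrial aspartate aminotransferases, fell 1.65-fold and 1.33-fold. GOT2 lost its call without DON replicate 2 (limma adjusted p = 0.0555), which left 1 lower, and without DON replicate 1 there were 3 lower. Of 14 tested carriers 6 rose and 4 fell (median 0.09). The plasma membrane carriers SLC7A5, SLC7A11 and SLC38A1 rose 2.12-fold, 2.12-fold and 1.98-fold. The mitochondrial glutamate carrier SLC25A22 fell 1.85-fold, the aspartate-glutamate carrier SLC25A13 fell 1.71-fold, and the proline transporter SLC6A20 fell 1.49-fold. Among 4 tested regulators 2 rose and 0 fell (median 0.65): ATF4 went from 191, 202 and 179 FPKM in vehicle to 419.7, 383 and 342 FPKM in DON, and CRBN, a ubiquitin ligase receptor that binds glutamine synthetase, rose from 12.8 ± 1.72 to 25.6 ± 3.98 FPKM. MYC did not pass (limma adjusted p = 0.177).

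**Figure D3:**
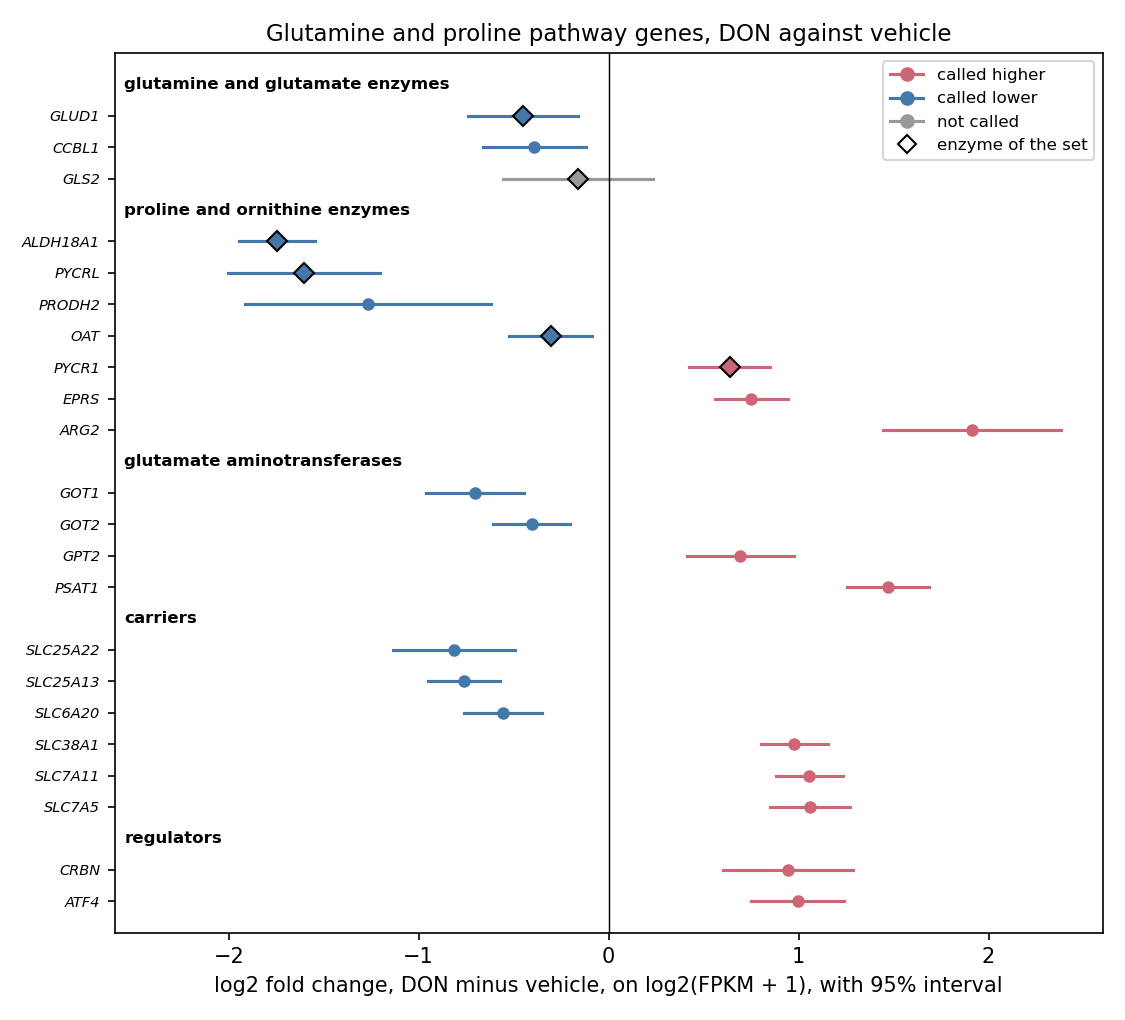
Log2 fold change (DON minus vehicle, on log2(FPKM + 1)) with its 95% interval from limma, for the tested enzymes of the set (diamonds) and, of each of the 5 lists, at most 3 called genes each way. ALDH18A1 (-1.75) and PYCRL (-1.60) lie farthest to the left and ARG2 (1.91) farthest to the right of the genes shown, and the interval of GLS2 includes 0.

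For each tested member the 2 tested genes with the highest Pearson r of log2(FPKM + 1) over the 6 libraries were taken as most alike in pattern. With 2 groups, a high r follows largely from the group difference, and it is given with no test. For ALDH18A1 these were the cyclin CCNB1 (r = 0.9998) and the sugar transporter SLC2A6 (0.9996), and for PYCRL the proteasome subunit PSMD1 (0.9993) and MRTO4, of ribosome assembly (0.9989). PYCR1 was most like CPEB2 (0.9989), an RNA-binding protein, and NCOA6 (0.9978). GLUD1 was most like USP30 (0.9977) and FGF2 (0.9974), and OAT most like SFXN1 (0.9975) and ERCC6L2 (0.9897). GLS2 was most like the readthrough transcript BLOC1S5-TXNDC5 (0.9876) and ABCF2 (0.9847). Pearson r takes no account of the size of a change: the log2 fold change was -0.564 for PSMD1 and -1.60 for PYCRL. NCOA6 (log2 fold change 0.212), SFXN1 (-0.181), ERCC6L2 (-0.257) and both matches of GLS2 were not called by limma. The other matches were called in the direction of their member. Among the members themselves, over the same 6 libraries, r was 0.985 for ALDH18A1 with PYCRL, 0.961 for GLUD1 with OAT and -0.966 for ALDH18A1 with PYCR1.

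Each library summed to 525200 to 556950 FPKM, with 11292 to 11474 genes at 1 FPKM or more. Epithelial markers were present in all libraries: the sum of 8 of them (KRT8 and KRT18 carried failure marks in some libraries and were left out) was 3470 to 4070 FPKM in vehicle and 3110 to 4040 FPKM in DON. KRT19 and EPCAM carried most of that sum, and 3 of the 8 were called by limma: MUC1 fell 2.23-fold (adjusted p = 0.00452), CEACAM6 fell 1.90-fold (adjusted p = 0.0404) and S100P rose 3.46-fold (adjusted p = 0.000134). All 5 acinar and endocrine markers and all 4 endothelial markers stayed below 1 FPKM, as did 5 of 6 fibroblast markers and 3 of 5 immune markers. The exceptions were LUM (153 ± 15.96 to 110 ± 19.2 FPKM), LYZ (250.3 ± 67.8 to 98.5 ± 19.9 FPKM) and CD68, with summed fibroblast markers at 141 to 172 FPKM in vehicle and 88.8 to 124 in DON, and immune markers at 231 to 356 and 102 to 152. PTPRC, a marker of leukocytes, and CD3E, a marker of T cells, stayed at or below 0.258 FPKM, and COL1A1 at or below 0.0766 FPKM. The part of these markers in the results was not tested.

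Across genes, the deviation of a library from its group mean was correlated with the GC content of the gene. Deviations cancel within a group, so opposite signs within a group are largely built in. The Spearman correlation was 0.23 to 0.504 in vehicle 1, vehicle 2 and DON 1, and -0.415 to -0.401 in vehicle 3, DON 2 and DON 3. Within the former libraries the DON minus vehicle difference in log2(FPKM + 1) was -1.69 for ALDH18A1, -1.47 for PYCRL, 0.62 for PYCR1, -0.61 for GLUD1 and -0.46 for OAT. Within the latter it was -1.74, -1.51, 0.67, -0.46 and -0.24 in the same order. GLS2 differed by 0.12 in the former and by -0.45 in the latter. The direction was the same on both sides for the 5 called members, as it must be where the groups do not overlap. For GLS2 it was not.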

How the data were processed

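Poly(A) RNA of 6 libraries was made into strand-directed libraries and sequenced as single 75 bp reads, per the labels' protocols. The authors deposited FPKM values, in rows named by gene symbol. The submitters' processing notes name STAR and hg19; the program behind the FPKM values, its annotation and its use of strand: not given in the sources used here. Columns named control were taken as vehicle by their number. The floor is 0.01 FPKM; 41 rows with a failure mark and 4 rows that share a symbol were left out. Absolute depth is unknown. The steps of low values put the other libraries at 1.25 to 1.70 times the depth of vehicle replicate 1, the shallowest.

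Genes that reached 1 FPKM in 3 or more libraries were tested on log2(FPKM + 1), which understates changes of low genes. The test was limma 3.58.1 (R 4.3.3) with moderated variances, an intensity trend and Benjamini-Hochberg adjustment at 0.05. The procedure was tested on simulated data with independent noise and few changed genes. Such data do not show how it behaves on these libraries. Folds are ratios of FPKM means. Ratios of 2 genes used exact permutation tests (scipy 1.17.1). Named genes are the 8 members, up to 3 called genes each way per list, and the 2 genes most alike per member; others named are pathway partners or markers, chosen after their values were seen. Members and lists were chosen with earlier results of these data known. Alternatives tried were median-of-ratios scaling, quantile normalization, a 0.1 pseudocount, testing every gene, a minimum of 5 FPKM, no trend, a replicate block, a term for the library split, a GC correction (GENCODE release 29 transcripts, 98.5% of tested genes) and leaving out each library. Some pathway genes are not reported here.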

Additional observations from a re-analysis of the deposited data

How the results depend on the processing

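ALDH18A1, PYCR1 and PYCRL kept their direction and their call under all 15 alternatives, with limma adjusted p up to 0.000773, 0.0148 and 0.0108. GLUD1 kept its call in 11 of 15 and OAT in 8 of 15, both always with the same direction. GLS2 passed in 0 of 14 (limma adjusted p from 0.158 to 0.801). The 3 ratios kept their direction with quantile normalization and with 1 added to each FPKM (scaling whole libraries cannot move a ratio). They kept it without each library too, but leaving out 1 library cannot turn a direction where the groups do not overlap. The same holds for the direction of the 5 called members. Without a filter on low values, 1391 genes were called higher and 1550 lower, 2 members were lower, and the lists of glutamine and glutamate enzymes and of proline and ornithine enzymes had 0 and 3 lower. With the split term, 1 glutamine and glutamate enzyme and 5 proline and ornithine enzymes were higher. With quantile normalization 1 glutamine and glutamate enzyme was lower. The cause of these differences was not tested.

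Leaving out each library in turn gave 1184 to 2104 genes called higher and 1502 to 2531 called lower, the lowest counts being those without DON replicate 2. Members called lower ranged from 2 (without vehicle replicate 2, vehicle replicate 3 or DON replicate 2) to 3, glutamine and glutamate enzymes called lower from 0 (without the same libraries) to 2 and aminotransferases called lower from 1 (without DON replicate 2) to 3. Same-numbered libraries did not deviate together in every pair (r = 0.254, -0.184 and 0.502), so the numbers were not taken as pairs. With a replicate block 2551 genes were called higher and 2861 lower, with 1 and 4 members, and it ended no member's call.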
